A study of Homo sapiens with 18 samples.

Results

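The 36 transcripts described here encode aminoacyl-tRNA synthetases, and they were chosen by symbol alone from the 45372 gene symbols with a TPM value. They comprise 20 genes of the cytosolic set and 16 genes of the mitochondrial set, whose symbols end in 2. GARS and KARS are counted in the cytosolic set although each encodes both the cytosolic and the mitochondrial enzyme for its amino acid. All 36 symbols were found and all 36 passed the filter on low values, a mean of 1 TPM, in every comparison, so that no member was lost. RNA sequencing covered 18 libraries of MV4-11 and THP1 (THP-1 in the labels), 2 human lines of acute myeloid leukemia (AML) with rearranged KMT2A. The groups were DMSO, the vehicle, 50 nM IACS-010759 (IACS), an inhibitor of complex I of the mitochondrial electron transport chain, for 8 h, and 50 nM IACS for 24 h, with 3 libraries per group and cell line. The time of the DMSO libraries is not stated, and both timepoints of a cell line were set against the same 3 DMSO libraries. The comparisons ask how inhibition of complex I changes the transcripts of each synthetase set, and each cell line stands for 1 line only.

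An aminoacyl-tRNA synthetase joins an amino acid to its tRNA, which makes the charged tRNA that ribosomes read. Cytosolic ribosomes and mitochondrial ribosomes use separate tRNAs, and most amino acids therefore have a cytosolic synthetase and a mitochondrial synthetase encoded by separate nuclear genes. When mitochondrial function is impaired or amino acids run short, kinases of the integrated stress response phosphorylate eIF2α, and the transcription factor ATF4 is translated more. ATF4 binds as a dimer with C/EBP proteins to a composite element in genes of amino acid synthesis and transport, and many cytosolic synthetase genes are known targets. The list of these known targets used here holds AARS, CARS, EPRS, GARS, IARS, LARS, MARS, NARS, SARS, TARS, WARS and YARS (12 genes). The other cytosolic genes are DARS, FARSA, FARSB, HARS, KARS, QARS, RARS and VARS (8 genes).

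The core of that composite element, TGATGNAA, was searched on both strands of RefSeq promoter windows of 300 bases on GRCh38.p14, from 250 bases before to 50 bases after a start site. RefSeq windows were matched for 30 members, 16 cytosolic and 14 mitochondrial, and none was matched for DARS, LARS, VARS, YARS, AARS2 and VARS2. The core was found in 7 of the 16 cytosolic members and in 1 of the 14 mitochondrial members, against 4.46% of all 27305 genes with a window. The stretches of 60 bases that hold the 8 matches are shown because they hold the core in these 8 members, read 5′ to 3′ on the gene's strand with the match in capitals (TTGCATCA is the core on the other strand).
CARS: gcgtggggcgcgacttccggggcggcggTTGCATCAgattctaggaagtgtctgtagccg
AARS: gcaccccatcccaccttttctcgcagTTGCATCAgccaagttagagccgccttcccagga
MARS: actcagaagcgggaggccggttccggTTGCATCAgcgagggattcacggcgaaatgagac
TARS: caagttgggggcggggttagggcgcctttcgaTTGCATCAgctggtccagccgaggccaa
IARS: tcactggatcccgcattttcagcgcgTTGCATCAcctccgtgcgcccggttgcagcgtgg
GARS: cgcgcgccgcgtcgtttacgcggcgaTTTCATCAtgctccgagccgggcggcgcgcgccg
NARS: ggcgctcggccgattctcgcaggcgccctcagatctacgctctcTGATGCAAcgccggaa
YARS2: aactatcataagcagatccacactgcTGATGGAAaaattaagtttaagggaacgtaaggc
These stretches lie at chr11:3057394-3057453 (minus strand) for CARS, chr16:70289660-70289719 (minus strand) for AARS, chr12:57488038-57488097 (plus strand) for MARS, chr5:33440935-33440994 (plus strand) for TARS, chr9:92293677-92293736 (minus strand) for IARS, chr7:30594819-30594878 (plus strand) for GARS, chr18:57621807-57621866 (minus strand) for NARS and chr12:32756061-32756120 (minus strand) for YARS2. The left end of the match stood at position -2 from the start site in CARS, -4 in MARS, 3 in TARS, -13 in IARS, -33 in GARS (its second start site) and 15 in NARS, counted without a position 0, and thus within 40 bases of the start site in these 6 genes. It stood further away at -187 in AARS and at -197 in YARS2. The exact letters TGATGCAA were present on one strand or the other in 6 of these genes, all but GARS and YARS2, against 1.08% of all genes with a window. A match is a description of letters, and binding was not measured.

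The authors deposited TPM, a unit that scales reads by transcript length and sets each library to the same total, so that values can be compared between genes but keep no read depth. Precision was therefore taken from the spread between the 3 libraries of a group. Scaling matters because 5 abundant noncoding RNAs held 39.6% to 60.1% of the TPM, and a library in which they take more shows less of every other gene. MV4-11 IACS 8 h replicate 3 stood apart with the lowest share, and the 3 THP1 libraries numbered 3 had shares of 55.8% to 60.1%. Of 10 myeloid markers 9 reached 1 TPM in MV4-11 and 8 in THP1, where MEIS1 did not exceed 0.0284 TPM, and CD14 stayed below 1 TPM in both. CD3E, CD2, MS4A1, HBB and COL1A2 did not exceed 0.134 TPM, and the 14 markers of other cell types summed to 16.2 to 71.0 TPM, mostly PECAM1. The 10 myeloid markers summed to 4363 to 7668 TPM in the MV4-11 libraries, and to 1187 to 1389 TPM in THP1 DMSO, 1062 to 1225 TPM at 8 h and 933 to 1069 TPM at 24 h, and their part in the results was not tested. RNA from fewer cells and less RNA per cell cannot be told apart in these bulk libraries.

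Synthetase transcripts were abundant in both cell lines, and the cytosolic set held 3.67 to 4.43 times the summed TPM of the mitochondrial set in the 18 libraries. The 20 cytosolic genes summed to 1476, 1519 and 1421 TPM in the MV4-11 DMSO libraries and to 1625, 1487 and 1256 TPM in the THP1 DMSO libraries. The 16 mitochondrial genes summed to 349, 351 and 335 TPM and 442, 402 and 319 TPM in the same libraries. The lowest ratio was found in a THP1 DMSO library and the highest in an MV4-11 library at 8 h.

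Within the cytosolic set the mean over the 18 libraries ran from 10.02 TPM for CARS, the cysteinyl-tRNA synthetase, to 184 TPM for EPRS, the fused glutamyl- and prolyl-tRNA synthetase. EPRS was followed by FARSA (136 TPM), QARS (113 TPM) and NARS (109 TPM). VARS, IARS, KARS and AARS averaged 90.5 to 99.1 TPM, LARS, GARS, TARS and RARS 61.6 to 80.3 TPM, and DARS, SARS, MARS, WARS and YARS 34.6 to 50.5 TPM. FARSB (25.4 TPM) and HARS (17.7 TPM) completed the set. FARSA and FARSB encode the alpha and beta subunits of the same phenylalanyl-tRNA synthetase, yet their transcripts differed several-fold per length. Within the mitochondrial set IARS2, the isoleucyl enzyme, stood alone at 102 TPM. AARS2, YARS2, HARS2, RARS2, SARS2, TARS2, EARS2 and MARS2 averaged 19.7 to 27.7 TPM, NARS2, CARS2 and WARS2 10.3 to 14.9 TPM, and PARS2, LARS2, FARS2 and VARS2 5.17 to 7.72 TPM. The 2 sets overlapped, since IARS2 exceeded most cytosolic members and CARS lay below 12 of the 16 mitochondrial members.

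Before IACS, the cell lines differed in 10 of the 36 members (limma on log2(TPM + 1), calling a gene where the fold change exceeded 1.5 in either direction and the p adjusted by Benjamini and Hochberg was below 0.05). EPRS, IARS2, AARS2 and RARS2 were higher in THP1 DMSO than in MV4-11 DMSO, against 19.7% of the 14117 genes tested. MARS2, QARS, VARS2, NARS2, WARS and SARS2 were lower, against 17.2% of the genes tested, so that neither share exceeded that of all genes. The median log2 fold change was -0.13 for the cytosolic set and 0.03 for the mitochondrial set, beside 0.01 for all genes. Of the 10 called genes 7 were mitochondrial, and they moved in both directions.

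**Figure D1:**
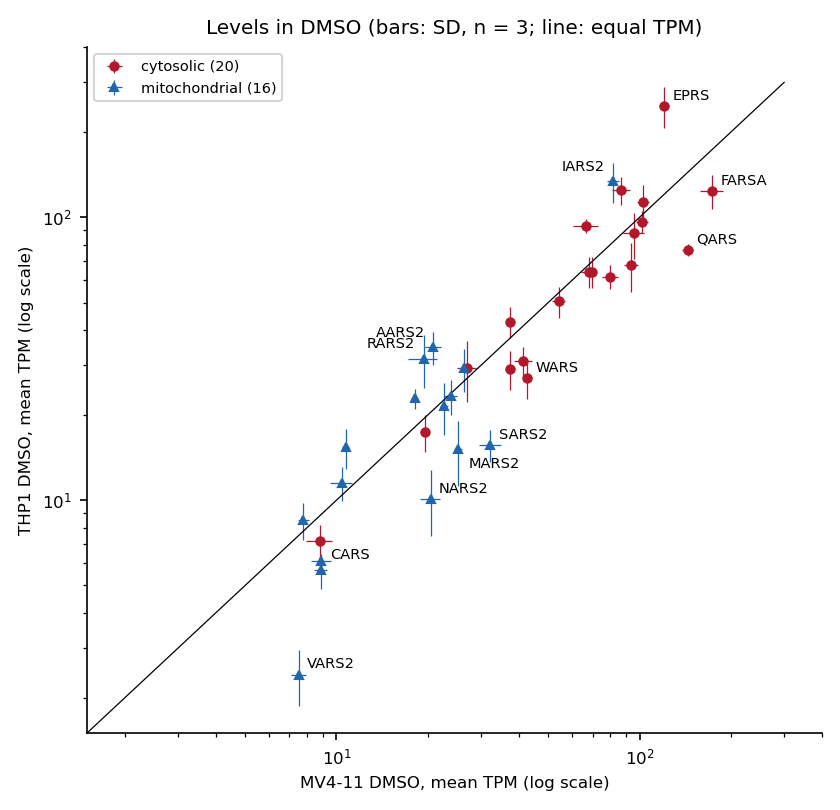
Mean TPM of the 36 synthetase transcripts in the DMSO groups, MV4-11 on the x axis and THP1 on the y axis, both on log scales, with the SD of 3 libraries as bars and the line of equal TPM. EPRS (121 against 247 TPM) lies furthest above the line among the cytosolic genes and VARS2 (7.53 against 2.42 TPM) furthest below it among the mitochondrial genes.

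EPRS (glutamyl-prolyl, chr1:219968600-220046530, minus strand, with gene coordinates here and below from GENCODE 44 on GRCh38) measured 124, 122 and 115 TPM in the MV4-11 DMSO libraries and 287, 248 and 206 TPM in the THP1 DMSO libraries. The groups did not overlap, and EPRS was higher in THP1 by 1.02 ± 0.14 on the log2(TPM + 1) scale (SE, limma adjusted p = 7.77e-06). QARS (glutaminyl, chr3:49095932-49105130, minus strand) measured 137, 149.7 and 145 TPM in MV4-11 and 79.3, 78.5 and 72.6 TPM in THP1, again without overlap, with a log2 fold change of -0.90 ± 0.14 (limma adjusted p = 3.94e-05). Both enzymes belong to the multisynthetase complex, and they moved in opposite directions. WARS (tryptophanyl, chr14:100333790-100376805, minus strand) was lower in THP1, at 30.2, 28.8 and 22.2 TPM against 41.4, 42.0 and 44.5 TPM in MV4-11, a log2 fold change of -0.65 ± 0.19 (limma adjusted p = 0.00729). WARS shares 10.6% of its annotated exon bases with genes on the opposite strand, and this library kit does not mark strand. VARS (valyl, chr6:31777518-31795752, minus strand) was the second furthest upward of the cytosolic genes, at 131, 136 and 109 TPM in THP1 and 81.9, 93.6 and 85.8 TPM in MV4-11, but its log2 fold change of 0.51 ± 0.16 did not reach the fold threshold (limma adjusted p = 0.0124).

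Among the mitochondrial genes, AARS2 (alanyl, chr6:44298731-44313347, minus strand) measured 20.3, 22.3 and 19.96 TPM in the MV4-11 DMSO libraries and 37.9, 37.0 and 29.3 TPM in THP1 DMSO, and IARS2 (chr1:220094132-220148041, plus strand) measured 85.3, 81.8 and 78.0 TPM in MV4-11 and 154, 138 and 110.1 TPM in THP1. Both genes were higher in each THP1 library than in any MV4-11 library, with log2 fold changes of 0.70 ± 0.18 and 0.69 ± 0.14 (limma adjusted p = 0.0030 and 3.15e-04). VARS2 (valyl, chr6:30914205-30926459, plus strand) was the lowest member in THP1, at 2.48, 2.93 and 1.85 TPM in DMSO, against 7.64, 7.89 and 7.06 TPM in MV4-11 DMSO. Its log2 fold change of -1.33 ± 0.18 was the largest in size of any member (limma adjusted p = 4.44e-06). VARS2 shares 63.0% of its exon bases, and SARS2 48.2%, with another annotated gene on the same strand, so that how the counting split their reads is uncertain. SARS2 (seryl, chr19:38915266-38930763, minus strand) measured 29.1, 33.6 and 33.9 TPM in MV4-11 DMSO and 16.4, 17.1 and 13.4 TPM in THP1 DMSO, a log2 fold change of -1.001 ± 0.16 (limma adjusted p = 3.81e-05). NARS2 (asparaginyl, chr11:78435620-78575194, minus strand) measured 22.2, 19.7 and 19.5 TPM against 12.02, 11.3 and 7.07 TPM, a log2 fold change of -0.98 ± 0.18 (limma adjusted p = 1.55e-04). In both genes the lowest MV4-11 library exceeded the highest THP1 library. RARS2 (0.67 ± 0.16) and MARS2 (-0.73 ± 0.21) were the other mitochondrial genes called. RARS2 lost its call without THP1 DMSO replicate 1 (0.52), and MARS2 (-0.53) and WARS (-0.52) lost theirs without THP1 DMSO replicate 3. VARS and CARS2 gained a call without THP1 DMSO replicate 3, LARS without THP1 DMSO replicate 1, and FARS2 without any one of THP1 DMSO replicates 1 and 2 and MV4-11 DMSO replicate 3.

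After IACS, no synthetase transcript changed by both criteria in either cell line at either timepoint. The count by limma was 0 of 36 in MV4-11 at 8 h, where 0.0148% of 13542 genes were called, and at 24 h, where 0.0886% were called. It was also 0 of 36 in THP1 at 8 h, where 0.0144% of 13928 genes were called, and at 24 h, where 0.0431% were called, so that few genes of any kind passed. At an unadjusted p under 0.05 the members in MV4-11 were CARS and AARS at 8 h, both higher, against 3.39% of all genes, and CARS at 24 h, higher, against 9.66%. In THP1 there were none at 8 h, against 2.11% of genes in either direction, and CARS2, KARS, FARSA and SARS2 at 24 h, all lower, against 7.12%. Kruskal-Wallis and Dunn's tests with the fold threshold also gave 0 of 36 in each comparison, where they called 0.0665% (8 h) and 0.406% (24 h) of all genes in MV4-11 and 0.0431% and 0.165% in THP1. Only CARS in MV4-11 at 8 h passed the unadjusted p together with the fold threshold, as did 0.532% of all genes in the upward direction.

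**Figure D2:**
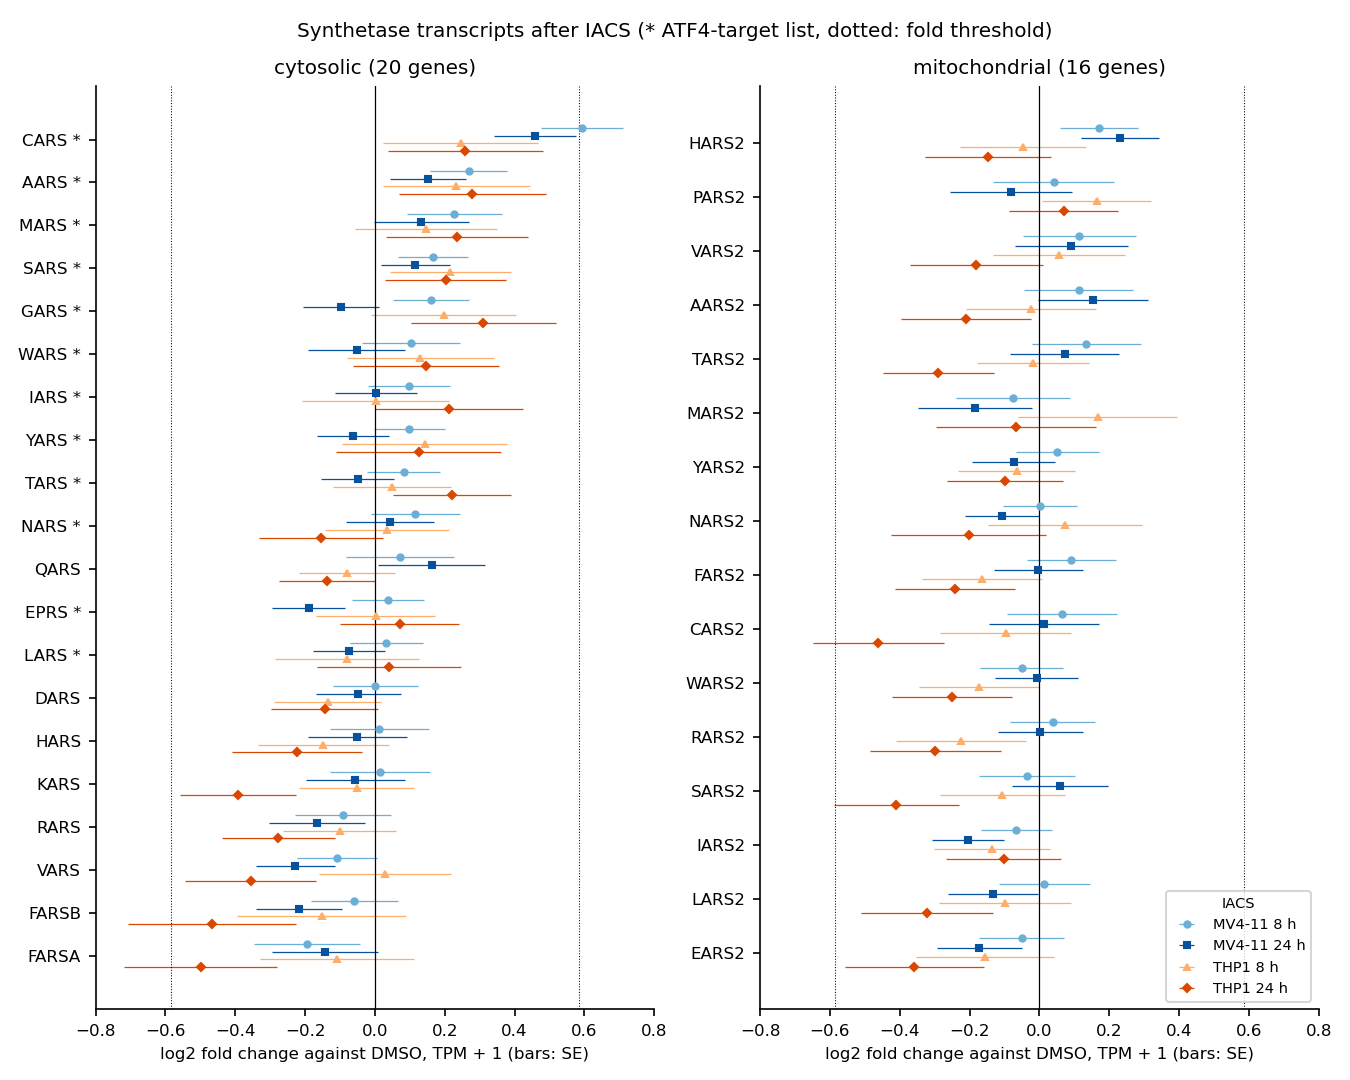
Log2 fold change of each synthetase transcript against the DMSO libraries of its cell line (x axis, log2(TPM + 1) scale, bars show the SE of limma), ordered by the mean over the 4 comparisons, with dotted lines at a 1.5-fold change and asterisks on the ATF4-target list. CARS leads the cytosolic panel, with 0.59 in MV4-11 at 8 h, whereas FARSA and FARSB close it and most mitochondrial members lie left of 0 in THP1 at 24 h.

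CARS, AARS and MARS had the highest mean log2 fold change over the 4 comparisons in the cytosolic set. The study's knockout library, drawn in part from transcripts changed in its own RNA sequencing of these cell lines, targets CARS. CARS (cysteinyl, chr11:3000922-3057613, minus strand) measured 9.79, 8.56 and 8.07 TPM in the MV4-11 DMSO libraries, 12.8, 13.7 and 14.8 TPM after 8 h of IACS and 13.0, 13.1 and 11.3 TPM after 24 h. All 6 IACS libraries of MV4-11 exceeded the highest DMSO library. The share of all genes whose IACS and DMSO libraries separate is not given here. Such separations, here and below, are therefore descriptions and are not read as particular to the member. In THP1 CARS measured 8.07, 7.38 and 6.16 TPM in DMSO, 8.42, 11.6 and 6.63 TPM at 8 h and 9.21, 11.3 and 6.43 TPM at 24 h, and the groups overlapped through the libraries numbered 3. The log2 fold changes of CARS were 0.59 ± 0.12 (8 h) and 0.46 ± 0.12 (24 h) in MV4-11 and 0.25 ± 0.22 and 0.26 ± 0.22 in THP1 (SE), with limma adjusted p of 0.24, 0.153, 0.941 and 0.726. AARS (alanyl, chr16:70251983-70289707, minus strand) measured 66.6, 72.7 and 60.3 TPM in the MV4-11 DMSO libraries, 79.5, 77.1 and 83.8 TPM after 8 h of IACS and 71.6, 72.8 and 77.3 TPM after 24 h, with all 8 h libraries above DMSO. In THP1 AARS measured 97.5, 95.7 and 87.3 TPM in DMSO, 115, 137 and 84.6 TPM at 8 h and 122, 144 and 83.0 TPM at 24 h. Replicates 1 and 2 lay above all DMSO libraries and replicate 3 below them at both timepoints. The log2 fold changes of AARS were 0.27 ± 0.11 (8 h) and 0.15 ± 0.11 (24 h) in MV4-11 and 0.23 ± 0.21 and 0.28 ± 0.21 in THP1. MARS (methionyl, chr12:57475445-57517569, plus strand) measured 42.7, 43.4 and 38.2 TPM in the MV4-11 DMSO libraries, 43.5, 45.9 and 57.5 TPM after 8 h of IACS and 41.9, 42.5 and 52.8 TPM after 24 h, with the 8 h libraries above DMSO by a narrow margin. In THP1 it measured 34.4, 31.7 and 27.1 TPM in DMSO, 34.0, 43.5 and 27.3 TPM at 8 h and 40.3, 43.8 and 27.7 TPM at 24 h, overlapping at each timepoint. MARS shares 12.4% of its exon bases with genes on the opposite strand, among them DDIT3, itself a target of ATF4, and reads of the partners cannot be told apart without strand.

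**Figure D3:**
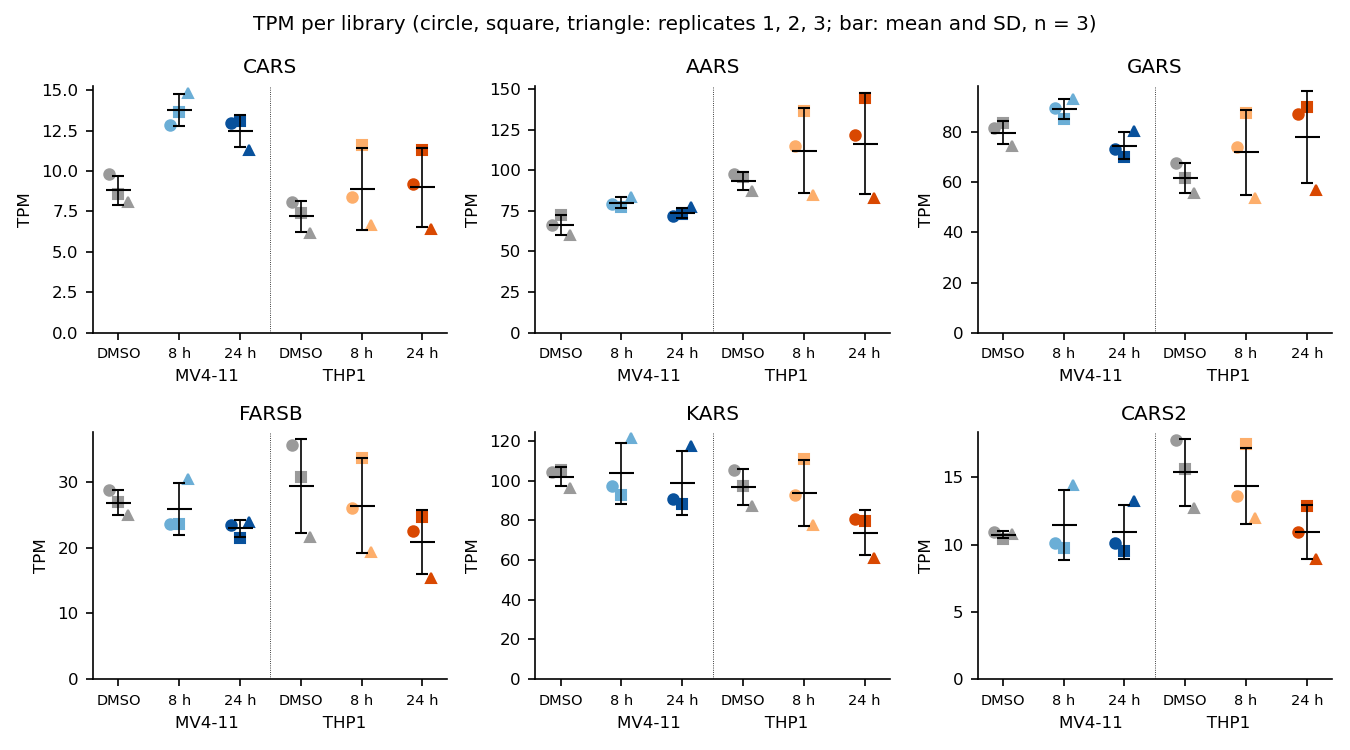
TPM (y axis, from 0) of CARS, AARS, GARS, FARSB, KARS and CARS2 in each library, by group on the x axis, with the mean and SD of 3 libraries as black bars. CARS in MV4-11 is above all DMSO libraries at both timepoints (11.3 to 14.8 TPM against 8.07 to 9.79 TPM), and the triangles of THP1 replicate 3 are the lowest of their group in each panel.

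FARSA and FARSB, the subunits of the phenylalanyl enzyme, had the lowest mean log2 fold changes. FARSA (chr19:12922479-12934037, minus strand) measured 157, 187 and 178 TPM in the MV4-11 DMSO libraries, 141, 139 and 177 TPM after 8 h of IACS and 143, 141 and 191 TPM after 24 h. In THP1 FARSA measured 132, 135 and 104 TPM in DMSO, 118, 141 and 89.8 TPM at 8 h and 92.9, 112 and 62.6 TPM at 24 h. IACS and DMSO libraries of FARSA overlapped in each comparison. FARSB (chr2:222566899-222656092, minus strand) measured 28.8, 26.9 and 25.0 TPM in the MV4-11 DMSO libraries, 23.7, 23.7 and 30.5 TPM after 8 h of IACS and 23.4, 21.5 and 24.0 TPM after 24 h. In THP1 FARSB measured 35.7, 30.8 and 21.6 TPM in DMSO, 26.1, 33.8 and 19.4 TPM at 8 h and 22.6, 24.8 and 15.4 TPM at 24 h. FARSB lay below all DMSO libraries in MV4-11 at 24 h and overlapped with DMSO elsewhere. Their log2 fold changes at 24 h were -0.14 ± 0.15 and -0.22 ± 0.12 in MV4-11 and -0.50 ± 0.22 and -0.47 ± 0.24 in THP1.

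GARS and KARS, which supply both compartments, lay on opposite sides of 0 in THP1 at 24 h, and neither passed the test. GARS (glycyl, chr7:30580533-30634033, plus strand) measured 81.6, 83.6 and 74.6 TPM in the MV4-11 DMSO libraries, 89.6, 85.3 and 93.4 TPM after 8 h of IACS and 73.4, 70.1 and 80.7 TPM after 24 h. In THP1 GARS measured 67.6, 61.6 and 55.6 TPM in DMSO, 74.3, 87.6 and 53.9 TPM at 8 h and 87.2, 90.0 and 56.9 TPM at 24 h. All MV4-11 libraries at 8 h lay above DMSO, and in THP1 at 24 h replicates 1 and 2 did so while replicate 3 lay within the range of DMSO. KARS (lysyl, chr16:75627474-75648643, minus strand) measured 104, 105 and 96.4 TPM in the MV4-11 DMSO libraries, 97.0, 92.8 and 121 TPM after 8 h of IACS and 90.8, 88.2 and 117 TPM after 24 h. In THP1 KARS measured 105, 97.5 and 87.3 TPM in DMSO, 92.8, 111 and 77.7 TPM at 8 h and 80.8, 79.7 and 60.8 TPM at 24 h. All 3 KARS libraries of THP1 at 24 h lay below all DMSO libraries, and the MV4-11 groups overlapped. The log2 fold changes were 0.16 ± 0.11 (8 h) and -0.10 ± 0.11 (24 h) in MV4-11 and 0.20 ± 0.21 and 0.31 ± 0.21 in THP1 for GARS and 0.01 ± 0.14 (8 h) and -0.06 ± 0.14 (24 h) in MV4-11 and -0.05 ± 0.17 and -0.39 ± 0.17 in THP1 for KARS.

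The remaining cytosolic members on the ATF4-target list were SARS, TARS, IARS, NARS, LARS and YARS, together with EPRS and WARS. SARS (seryl) measured 37.4, 38.4 and 36.1 TPM in the MV4-11 DMSO libraries, 40.4, 41.0 and 44.6 TPM after 8 h of IACS and 39.8, 40.0 and 41.8 TPM after 24 h, and no IACS library fell within the range of DMSO. In THP1 SARS measured 48.4, 42.3 and 37.7 TPM in DMSO, 50.9, 57.8 and 41.5 TPM at 8 h and 53.4, 55.5 and 40.1 TPM at 24 h. TARS (threonyl) measured 72.4, 63.9 and 56.5 TPM in THP1 DMSO, 67.9, 79.5 and 53.6 TPM at 8 h and 80.1, 80.8 and 64.5 TPM at 24 h. In both genes replicates 1 and 2 of THP1 at 24 h exceeded all DMSO libraries, and replicate 3 lay within the range of DMSO. In MV4-11 TARS averaged 70.0 ± 2.15, 74.2 ± 3.28 and 67.6 ± 4.49 TPM in DMSO, at 8 h and at 24 h, and all group means that follow are in this order (SD, n = 3). IARS (isoleucyl) averaged 95.7 ± 7.63, 103 ± 9.26 and 95.9 ± 6.72 TPM in MV4-11 and 87.7 ± 16.1, 88.5 ± 21.0 and 102 ± 21.1 TPM in THP1. NARS (asparaginyl) averaged 103 ± 4.40, 112 ± 16.1 and 106 ± 9.37 TPM in MV4-11 and 113 ± 16.8, 117 ± 24.2 and 101 ± 14.2 TPM in THP1. In both genes the IACS libraries overlapped with DMSO in each comparison, as they did in the next pair. LARS (leucyl) averaged 94.1 ± 4.94, 96.2 ± 3.38 and 89.3 ± 4.51 TPM in MV4-11 and 67.9 ± 13.4, 64.4 ± 14.3 and 69.9 ± 13.4 TPM in THP1. YARS (tyrosyl) averaged 37.3 ± 1.34, 40.0 ± 2.86 and 35.7 ± 0.927 TPM in MV4-11 and 29.1 ± 4.57, 32.6 ± 7.45 and 32.7 ± 9.84 TPM in THP1. EPRS after IACS measured 126, 120.0 and 125 TPM at 8 h and 108, 98.9 and 110.3 TPM at 24 h in MV4-11, where all 24 h libraries lay below all DMSO libraries. In THP1 EPRS measured 258, 282 and 202 TPM at 8 h and 287, 271 and 219 TPM at 24 h. WARS after IACS measured 43.2, 40.1 and 55.5 TPM (8 h) and 37.8, 38.5 and 47.5 TPM (24 h) in MV4-11, and 29.4, 37.2 and 23.3 TPM (8 h) and 33.8, 34.6 and 22.6 TPM (24 h) in THP1, overlapping with DMSO.

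The remaining cytosolic members outside that list were QARS, VARS, DARS, HARS and RARS. QARS after IACS measured 131, 138 and 192 TPM (8 h) and 147, 154 and 185 TPM (24 h) in MV4-11, and 73.3, 81.2 and 64.2 TPM (8 h) and 68.9, 78.3 and 62.8 TPM (24 h) in THP1. VARS after IACS measured 77.1, 79.2 and 85.7 TPM (8 h) and 70.0, 70.4 and 82.5 TPM (24 h) in MV4-11, and 131, 151 and 103 TPM (8 h) and 105, 116 and 75.0 TPM (24 h) in THP1. Both overlapped with DMSO in each comparison. So did the 3 genes that follow. DARS (aspartyl) averaged 54.1 ± 2.79, 54.4 ± 6.48 and 52.4 ± 5.28 TPM in MV4-11 and 50.5 ± 6.34, 46.0 ± 7.29 and 45.4 ± 3.48 TPM in THP1. HARS (histidyl) averaged 19.6 ± 0.726, 20.01 ± 4.31 and 18.9 ± 1.66 TPM in MV4-11 and 17.4 ± 2.57, 15.7 ± 2.80 and 14.8 ± 2.92 TPM in THP1. RARS (arginyl) averaged 68.0 ± 4.05, 64.2 ± 10.2 and 60.7 ± 7.57 TPM in MV4-11 and 64.2 ± 8.11, 59.9 ± 9.45 and 52.8 ± 7.05 TPM in THP1. The log2 fold changes of these 3 genes ran from -0.28 (RARS, THP1 at 24 h) to 0.01 (HARS, MV4-11 at 8 h).

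In the mitochondrial set, HARS2, PARS2 and VARS2 had the highest mean log2 fold changes. HARS2 (histidyl, chr5:140691430-140699305, plus strand) measured 24.1, 24.9 and 22.5 TPM in the MV4-11 DMSO libraries, 24.8, 26.1 and 30.1 TPM after 8 h of IACS and 29.1, 26.3 and 29.1 TPM after 24 h. In THP1 HARS2 measured 26.1, 24.1 and 19.7 TPM in DMSO, 22.4, 26.7 and 18.8 TPM at 8 h and 23.6, 22.7 and 16.8 TPM at 24 h. All MV4-11 libraries at 24 h lay above DMSO, with a log2 fold change of 0.23 ± 0.11 (limma adjusted p = 0.438), whereas the value in THP1 at 24 h was -0.15 ± 0.18. HARS2 and HARS lie head to head on opposite strands and share exon bases (6.99% of HARS2 with its neighbours and 8.46% of HARS with its own). PARS2 (prolyl, chr1:54756898-54764523, minus strand) measured 8.13, 9.13 and 9.43 TPM in the MV4-11 DMSO libraries, 8.06, 7.42 and 12.8 TPM after 8 h of IACS and 7.69, 7.85 and 9.61 TPM after 24 h. In THP1 PARS2 measured 6.29, 6.15 and 5.92 TPM in DMSO, 7.03, 7.80 and 6.18 TPM at 8 h and 6.51, 7.64 and 5.42 TPM at 24 h. PARS2 overlapped with DMSO in each comparison. VARS2 after IACS measured 6.83, 8.04 and 10.1 TPM (8 h) and 7.68, 6.71 and 10.2 TPM (24 h) in MV4-11. In THP1 VARS2 measured 2.46, 3.01 and 2.15 TPM at 8 h and 1.98, 2.59 and 1.49 TPM at 24 h, likewise overlapping with DMSO.

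EARS2 and LARS2 had the lowest mean log2 fold changes of the mitochondrial set. EARS2 (glutamyl, chr16:23520754-23557731, minus strand) measured 22.4, 23.5 and 22.2 TPM in the MV4-11 DMSO libraries, 21.0, 19.6 and 25.4 TPM after 8 h of IACS and 19.0, 19.1 and 22.2 TPM after 24 h. In THP1 EARS2 measured 25.2, 22.9 and 16.5 TPM in DMSO, 19.9, 23.0 and 14.8 TPM at 8 h and 17.96, 17.4 and 13.9 TPM at 24 h. EARS2 overlapped with DMSO in each comparison, and so did LARS2. LARS2 (leucyl, chr3:45388561-45554726, plus strand) measured 8.10, 7.48 and 7.75 TPM in the MV4-11 DMSO libraries, 7.39, 6.93 and 9.46 TPM after 8 h of IACS and 6.78, 6.56 and 7.72 TPM after 24 h. In THP1 LARS2 measured 9.63, 8.76 and 7.14 TPM in DMSO, 7.71, 9.82 and 6.32 TPM at 8 h and 7.35, 7.28 and 5.25 TPM at 24 h. At 24 h the log2 fold changes were -0.17 ± 0.12 and -0.36 ± 0.20 for EARS2 and -0.13 ± 0.13 and -0.32 ± 0.19 for LARS2, in MV4-11 and THP1. CARS2 (cysteinyl, chr13:110641412-110713603, minus strand) measured 11.0, 10.4 and 10.8 TPM in the MV4-11 DMSO libraries, 10.1, 9.76 and 14.4 TPM after 8 h of IACS and 10.1, 9.53 and 13.3 TPM after 24 h. In THP1 CARS2 measured 17.7, 15.6 and 12.7 TPM in DMSO, 13.6, 17.5 and 11.97 TPM at 8 h and 10.9, 12.9 and 8.90 TPM at 24 h. Its value in THP1 at 24 h, -0.46 ± 0.19, was the lowest of the mitochondrial set, with 1 library at 24 h within the range of DMSO. SARS2 after IACS measured 14.6, 16.9 and 11.99 TPM at 8 h and 11.5, 13.9 and 9.45 TPM at 24 h in THP1, where only replicate 2 at 24 h lay within the range of DMSO.

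The other mitochondrial genes stayed within 1.5-fold of DMSO in each comparison, like the mitochondrial members above. AARS2 averaged 20.9 ± 1.29, 22.9 ± 4.60 and 23.5 ± 4.35 TPM in MV4-11 and 34.7 ± 4.70, 34.3 ± 6.06 and 30.1 ± 6.14 TPM in THP1. IARS2 after IACS measured 77.7, 74.4 and 81.9 TPM at 8 h and 70.2, 68.4 and 73.6 TPM at 24 h in MV4-11, where all 24 h libraries lay below DMSO. In THP1 it measured 127, 139 and 99.6 TPM at 8 h and 133, 127 and 111 TPM at 24 h, overlapping with DMSO. NARS2 averaged 20.5 ± 1.54, 20.5 ± 1.43 and 18.9 ± 0.16 TPM in MV4-11 and 10.1 ± 2.67, 10.6 ± 2.55 and 8.54 ± 1.59 TPM in THP1, also with all MV4-11 libraries at 24 h below DMSO. Among the rest, TARS2 (threonyl) averaged 18.1 ± 0.437, 20.3 ± 4.90 and 19.2 ± 2.70 TPM in MV4-11 and 22.9 ± 1.84, 22.8 ± 4.18 and 18.6 ± 2.00 TPM in THP1, with all THP1 libraries at 24 h below DMSO. MARS2 (methionyl) averaged 25.2 ± 0.711, 24.4 ± 6.16 and 22.2 ± 3.49 TPM in MV4-11 and 15.1 ± 3.87, 17.1 ± 4.45 and 14.3 ± 2.62 TPM in THP1. YARS2 (tyrosyl) averaged 26.3 ± 0.851, 27.4 ± 3.67 and 25.0 ± 2.00 TPM in MV4-11 and 29.3 ± 5.11, 27.8 ± 3.89 and 27.1 ± 3.16 TPM in THP1. The IACS libraries of MARS2 and YARS2 overlapped with DMSO in each comparison, as did those of the 4 genes that follow. FARS2 (phenylalanyl) averaged 8.88 ± 0.434, 9.61 ± 1.74 and 8.85 ± 0.187 TPM in MV4-11 and 5.67 ± 0.80, 4.98 ± 1.03 and 4.63 ± 0.505 TPM in THP1. WARS2 (tryptophanyl) averaged 10.4 ± 0.842, 10.03 ± 1.21 and 10.3 ± 0.434 TPM in MV4-11 and 11.5 ± 1.57, 10.2 ± 2.05 and 9.48 ± 0.863 TPM in THP1. RARS2 (arginyl) averaged 19.4 ± 2.16, 19.9 ± 1.87 and 19.4 ± 1.57 TPM in MV4-11 and 31.7 ± 6.67, 26.9 ± 5.52 and 25.3 ± 2.43 TPM in THP1. SARS2 in MV4-11 averaged 32.2 ± 2.66, 31.6 ± 4.69 and 33.7 ± 4.37 TPM.

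As sets, the cytosolic and mitochondrial genes stayed close together in MV4-11 and separated in THP1 at 24 h. The median log2 fold changes of the cytosolic and mitochondrial sets were 0.08 and 0.04 in MV4-11 at 8 h, beside 0.06 for all genes tested, and -0.05 and -0.01 at 24 h, beside 0.08. In THP1 they were 0.02 and -0.08 at 8 h and 0.06 and -0.23 at 24 h, beside -0.12 for all genes at both timepoints. At 24 h in THP1, 11 of the 20 cytosolic and 1 of the 16 mitochondrial members lay above 0, and 11 and 4 exceeded the all-gene median. Without GARS and KARS the cytosolic median at 24 h was the same to 2 decimals, 0.06. The cytosolic minus mitochondrial difference at 24 h was 0.28, and 0.25 to 0.34 with each library left out in turn, whereas the cytosolic median alone ran from -0.08 to 0.20 and was negative without DMSO replicate 3, IACS 24 h replicate 1 or IACS 24 h replicate 2. In MV4-11 at 8 h the cytosolic and mitochondrial medians were 0.00 and -0.08 without IACS 8 h replicate 3, the library that stood apart. Scaling the libraries by the median of ratios moved the median of all genes to -0.01 in MV4-11 and to 0.00 and -0.01 in THP1. On that scale the cytosolic and mitochondrial medians were 0.00 and -0.03 in MV4-11 at 8 h. They were -0.15 and -0.10 in MV4-11 at 24 h against 0.15 and 0.05 in THP1 at 8 h. THP1 at 24 h gave 0.17 and -0.12. The sign of the mitochondrial median at 8 h thus depended on the scaling in both cell lines, whereas at 24 h in THP1 it was negative on both scales.

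Within the cytosolic set the genes on the ATF4-target list had the higher median in each comparison, with the widest gap in THP1 at 24 h. The list was written from general knowledge but with earlier results of these data known, so the split is not independent of them. In THP1 at 24 h the median log2 fold change was 0.21 for the 12 listed genes, of which 11 lay above 0, and -0.32 for the 8 others, of which 0 lay above 0. In THP1 at 8 h the medians were 0.14 and -0.10, with 11 of 12 and 1 of 8 above 0. In MV4-11 they were 0.11 and -0.03 at 8 h, with 12 of 12 and 4 of 8 above 0, and -0.02 and -0.10 at 24 h, with 6 of 12 and 1 of 8 above 0. The listed genes without CARS had medians of 0.10, -0.05, 0.13 and 0.20 in the same order of MV4-11 and THP1, 8 h before 24 h. With median-of-ratios scaling the medians of the listed and the other genes were 0.04 and -0.10 (MV4-11 at 8 h), -0.12 and -0.20 (MV4-11 at 24 h), 0.27 and 0.03 (THP1 at 8 h) and 0.32 and -0.20 (THP1 at 24 h), so that the listed genes lay higher on both scales in each comparison. These counts and medians are descriptions, with the DMSO libraries shared between timepoints, and no p was computed for a list.

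A difference between gene sets taken within a library depends little on how that library is scaled. The mean log2(TPM + 1) of the listed genes minus that of the other cytosolic genes was -0.23, -0.27 and -0.30 in the MV4-11 DMSO libraries, 0.01, -0.01 and -0.18 at 8 h and -0.08, -0.10 and -0.25 at 24 h. At 8 h all 3 libraries lay above DMSO, but replicate 3, the library that stood apart, was the nearest to it, and at 24 h replicate 3 lay within the range of DMSO. In THP1 the difference was -0.16, -0.23 and -0.21 in DMSO, 0.02, 0.05 and -0.06 at 8 h and 0.32, 0.31 and 0.21 at 24 h. The 3 THP1 groups did not overlap, and the order DMSO, 8 h, 24 h held in each numbered set of libraries. The cytosolic minus the mitochondrial mean was 1.73, 1.71 and 1.78 in THP1 DMSO, 1.83, 1.85 and 1.78 at 8 h and 1.97, 2.00 and 1.83 at 24 h, where all 24 h libraries exceeded DMSO. In MV4-11 it was 1.73, 1.74 and 1.70 in DMSO, 1.81, 1.81 and 1.69 at 8 h and 1.72, 1.76 and 1.70 at 24 h, and the groups overlapped. The ratio of the summed TPM of the cytosolic and mitochondrial sets did overlap between 24 h and DMSO in THP1. That ratio was 3.92 in IACS 24 h replicate 3 and 3.93 in DMSO replicate 3.

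**Figure D4:**
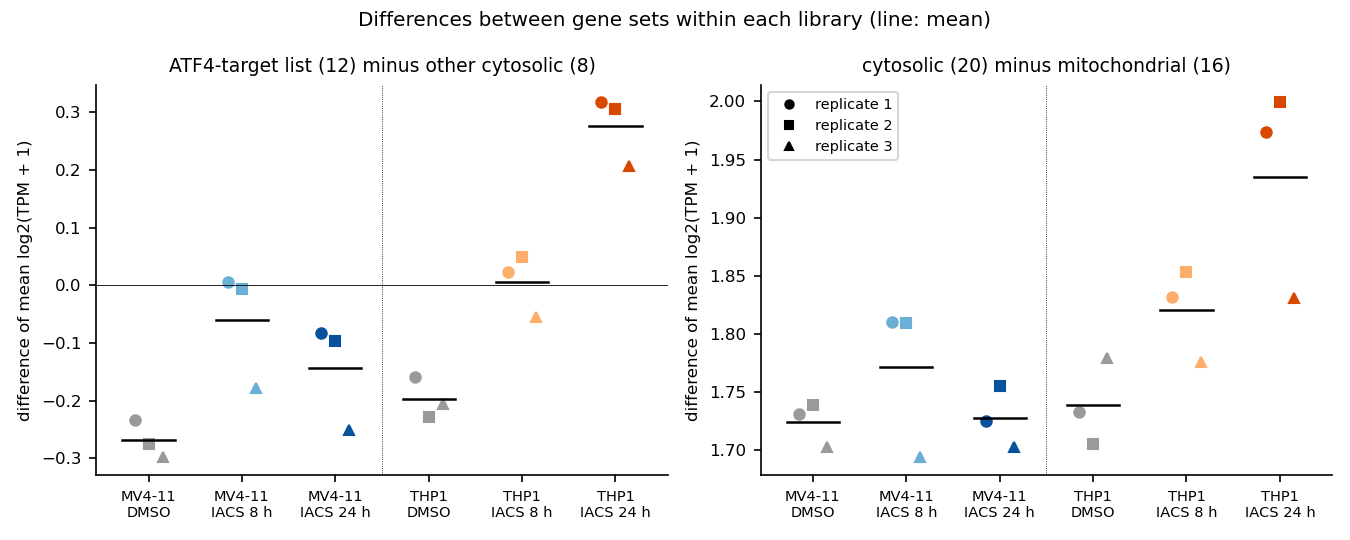
Difference of mean log2(TPM + 1) between gene sets within each of the 18 libraries (y axis), ATF4-target list minus other cytosolic genes on the left and cytosolic minus mitochondrial genes on the right, by group on the x axis, with the group mean as a line. The left panel runs from -0.30 in an MV4-11 DMSO library to 0.32 in a THP1 library at 24 h, where the group does not overlap with DMSO.

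With the libraries scaled, the members of THP1 at 24 h divided by direction, although none reached the fold threshold. With median-of-ratios scaling, SARS, TARS and MARS were higher at an adjusted p under 0.05 alone, against 1.3% of 13892 genes, and CARS2 and SARS2 were lower, against 2.74% (limma). Libraries of THP1 with the same replicate number deviated together between DMSO and 24 h, but not in every pair between DMSO and 8 h. With the replicate number as a block and the same scaling, 8 members were higher, against 5.74% of genes, and 6 were lower, against 9.17%. The 8 were SARS, TARS, GARS, IARS, CARS, MARS, WARS and AARS, all on the ATF4-target list, with log2 fold changes of 0.26 (WARS) to 0.43 (GARS). The 6 were FARSB, FARSA and KARS of the other cytosolic genes and CARS2, EARS2 and SARS2 of the mitochondrial genes, with -0.38 (FARSA) to -0.24 (EARS2). TARS had 0.34 ± 0.06 (SE, limma adjusted p = 0.0117), CARS 0.36 ± 0.08 (adjusted p = 0.0244) and FARSB -0.35 ± 0.05 (adjusted p = 0.00762). The block on the deposited scale gave 0 higher, against 1.11% of genes, and 7 lower, against 11.1%, namely FARSB, VARS, CARS2, EARS2, KARS, FARSA and SARS2. The count of 14 with both settings was 0 without IACS 24 h replicate 1, 2 without DMSO replicate 2, 7 without IACS 24 h replicate 2 and 9 without DMSO replicate 1 or DMSO replicate 3 of THP1, and 12 or 13 without any other THP1 library.

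**Figure D5:**
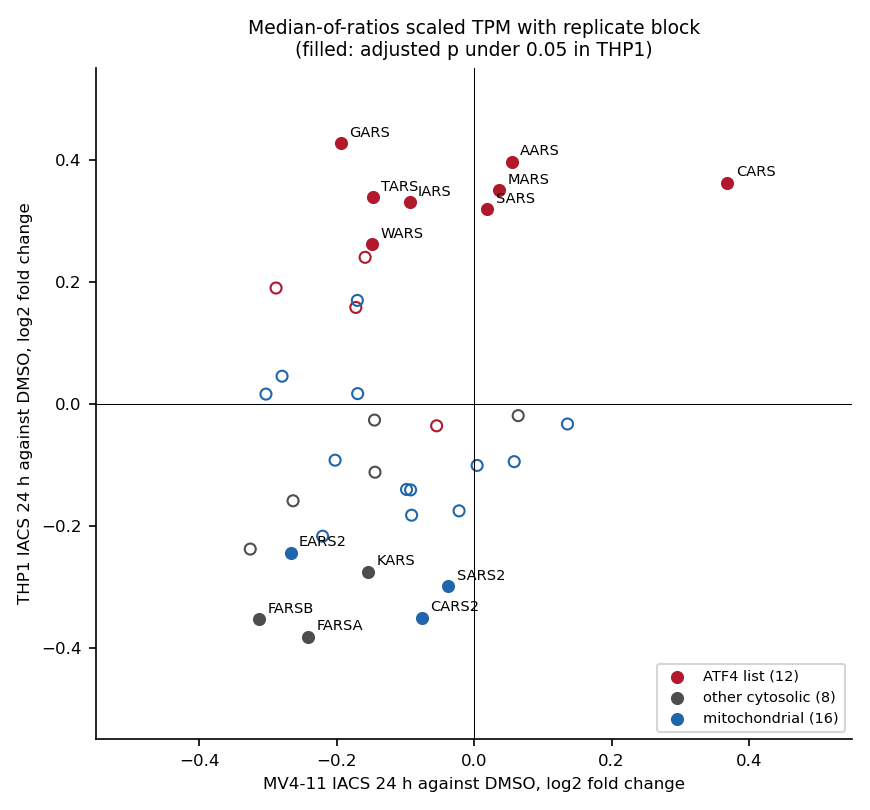
Log2 fold change at 24 h against DMSO in MV4-11 (x axis) and THP1 (y axis) in the fit that combined the replicate block with median-of-ratios scaling, 1 point per synthetase transcript, filled where the adjusted p in THP1 was under 0.05. The 8 filled points above 0 belong to the ATF4-target list, led by GARS at 0.43 in THP1, and only CARS lies far to the right, at 0.37 in MV4-11.

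In MV4-11 at 24 h, median-of-ratios scaling left CARS higher (0.37 ± 0.08, limma adjusted p = 0.0398) and FARSB lower (-0.31 ± 0.07, adjusted p = 0.0434) at the adjusted p alone, against 3.02% of genes in either direction. GARS, TARS and WARS were at -0.19, -0.15 and -0.15 there, on the other side of 0 from their values in THP1. An interaction term compared the response of the cell lines, which called 0 of 36 members at 8 h and 0 at 24 h, where 0.00708% of 14117 genes were called at each timepoint. No member had an unadjusted p under 0.05 in either interaction, against 3.16% of genes at 8 h and 7.1% at 24 h. With the block and scaling together the interaction at 24 h called GARS, higher in THP1 by 0.63 ± 0.15 (limma adjusted p = 0.0458), against 1.02% of genes. GARS had 0.41 ± 0.24 in the deposited scale without the block (adjusted p = 0.704), and the adjusted p was 0.121 with scaling alone and 0.186 with the block alone, so that the call rests on both settings. The block was applied in MV4-11 too, where DMSO and IACS libraries of the same number did not pair throughout.

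The 24 h and 8 h libraries of IACS were also compared directly, without the DMSO libraries. By limma 0 of 36 members were called in MV4-11, where 0.0% of genes were called, and 0 of 36 in THP1, where 0.00718% were called. At an unadjusted p under 0.05, EPRS and GARS were lower at 24 h in MV4-11 (-0.23 and -0.26) against 0.775% of genes, and no member passed in THP1, against 4.99% in either direction. With median-of-ratios scaling, TARS2, VARS, CARS2, KARS and SARS2 were lower at 24 h in THP1 at the adjusted p alone, against 2.5% of genes. With the block added these were 10, now with MARS2, FARSB, LARS2, AARS2 and FARSA, against 8.29% of genes. No member was higher in either fit, and 6 of the 10 were mitochondrial. The median log2 fold changes from 8 h to 24 h in THP1 were -0.19 for the mitochondrial set, 0.06 for the ATF4-target list and -0.24 for the other cytosolic genes, beside 0.01 for all genes.

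Each mitochondrial gene was also set against the cytosolic gene for the same amino acid, as the ratio of their TPM in a library. IARS over IARS2 was the ratio that separated IACS from DMSO in all 4 comparisons. It was 1.17 ± 0.0456 (SD, n = 3) in MV4-11 DMSO, 1.31 ± 0.0612 at 8 h and 1.35 ± 0.0433 at 24 h, and 0.653 ± 0.0167, 0.72 ± 0.0587 and 0.818 ± 0.102 in THP1. CARS over CARS2 was 0.47 ± 0.0146 in THP1 DMSO, 0.613 ± 0.056 at 8 h and 0.814 ± 0.0804 at 24 h, without overlap between IACS and DMSO. In MV4-11 it was 0.82 ± 0.073, 1.23 ± 0.189 and 1.17 ± 0.279, and the 24 h libraries overlapped with DMSO. SARS over SARS2 separated both timepoints from DMSO in THP1, at 2.75 ± 0.249, 3.45 ± 0.0345 and 4.30 ± 0.329, as did WARS over WARS2, at 2.35 ± 0.0938, 2.94 ± 0.148 and 3.17 ± 0.445. At 24 h in THP1 the ratios of AARS to AARS2 (2.71 ± 0.229 in DMSO and 3.83 ± 0.27 at 24 h), EPRS to EARS2 (11.6 ± 0.852 and 15.8 ± 0.197), LARS to LARS2 (7.94 ± 0.41 and 10.5 ± 0.331) and TARS to TARS2 (2.80 ± 0.168 and 4.04 ± 0.182) also lay above DMSO in all 3 libraries. No THP1 ratio lay below DMSO in all 3 libraries at 24 h, and HARS over HARS2 lay below it at 8 h (0.746 ± 0.039 and 0.692 ± 0.0205). In MV4-11 the ratios of MARS to MARS2 and NARS to NARS2 lay above DMSO at both timepoints, and FARSA over FARS2 at 8 h, HARS over HARS2 at 24 h and VARS over VARS2 at 24 h lay below it. The exact permutation test of 3 against 3 libraries cannot give a two-sided p below 0.1, and none was computed for these ratios. Both timepoints of a cell line share their DMSO libraries, so their separations are not independent. The share of other gene pairs that separate in this way is not given here, and the ratios are descriptions. The ratios differed most between cell lines for VARS to VARS2, at 11.6 ± 0.763 in MV4-11 DMSO and 52.7 ± 6.26 in THP1 DMSO.

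Other divisions of the cytosolic set were also described. EPRS, IARS, LARS, MARS, QARS, RARS, KARS and DARS form the multisynthetase complex, and in THP1 at 24 h their median log2 fold change was -0.05 against 0.14 for the 12 free enzymes, with 4 of 8 and 7 of 12 above 0. In MV4-11 at 24 h both were -0.05. The class I and class II enzymes, which differ in the fold of their catalytic domain, had medians of 0.10 and -0.15 in THP1 at 24 h and -0.06 and -0.05 in MV4-11. The 7 cytosolic genes with the element core in their promoter window had medians of 0.16 (8 h) and 0.04 (24 h) in MV4-11 and 0.15 and 0.23 in THP1. The 9 with a window and no core had 0.01, -0.06, -0.08 and -0.22. All 7 with the core are on the ATF4-target list, and of the 9 only EPRS, SARS and WARS are, so this division largely repeats that list. EPRS, SARS and WARS are among the 9 and lay above 0 in THP1 at 24 h, and NARS has the core and lay at -0.15, so that the letters did not divide the genes fully. YARS2, the mitochondrial gene with the core, lay between -0.10 and 0.05 in the 4 comparisons.

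ATF4 itself measured 181, 189.8 and 166 TPM in MV4-11 DMSO, 213, 223 and 256 TPM at 8 h and 257, 239 and 261 TPM at 24 h, without overlap between IACS and DMSO. In THP1 it measured 158, 142 and 116 TPM in DMSO, 194, 217 and 135 TPM at 8 h and 241, 243 and 138 TPM at 24 h, with replicate 3 within the range of DMSO. A list of 16 genes made of ATF4 and its other targets in amino acid metabolism and stress had medians of 0.45 and 0.32 in MV4-11 and 0.35 and 0.50 in THP1. Every one of these medians exceeded that of the listed synthetases in the same comparison. By limma CHAC1, a glutathione-degrading enzyme, rose in MV4-11 at 8 h (1.47) and 24 h (1.07), and PHGDH, of serine synthesis, rose there at 24 h (1.03). These were 1 and 2 of the 16 genes, against 0.0148% and 0.0886% of all genes. In THP1 0 of 16 were called at either timepoint, against 0.0144% and 0.0431% of all genes. With median-of-ratios scaling 6 of the 16 were called in THP1 at 24 h, all higher, against 0.338% of genes, and with the replicate block added 8 were, against 0.59%. ATF4 was among the 6, at 0.66 (limma adjusted p = 0.0345), as were ASNS, asparagine synthetase, at 1.44 and CHAC1 at 1.19.

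The genes that work beside the synthetases gave no calls against DMSO by both criteria, on the deposited scale or with scaling. On the deposited scale only 0.0144% to 0.0886% of all genes were called in these comparisons, so the lack of calls says little about these genes. The 3 scaffold proteins of the multisynthetase complex (AIMP1, AIMP2 and EEF1E1) had medians of -0.05 and -0.21 in MV4-11 and -0.11 and -0.31 in THP1. The 9 mitochondrial translation factors had -0.04, -0.04, -0.11 and -0.25 in that order, the last near the -0.23 of the mitochondrial synthetases. The 5 cytosolic elongation factors had 0.09, 0.15, 0.01 and 0.10, and the 4 genes of tRNA export and proofreading 0.00, -0.18, -0.10 and -0.13. By the adjusted p alone, scaling together with the block gave 2 of these genes higher and 5 lower in THP1 at 24 h, beside the 5.74% and 9.17% of all genes. The 2 were XPOT, which exports tRNA from the nucleus (0.42), and EEF2, an elongation factor (0.43). The 5 were AIMP2, the mitochondrial factors TUFM, GFM1 and MTRF1L, and AARSD1, a proofreading enzyme (-0.58), and scaling alone left XPOT (limma adjusted p = 0.0313). In MV4-11 at 24 h scaling gave 1 of these genes, GFM1, lower, beside 3.02% of all genes in either direction. With the block added, GFM1 (-0.32), MTRF1L (-0.28) and DTD2 (-0.31) were lower there at the adjusted p alone, and no gene of these lists was higher. GFM1 and MTRF1L were thus lower in both cell lines in that fit. The share of all genes in the MV4-11 fit with the block is not given here. Neither count in MV4-11 is read as a result about these genes.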

How the data were processed

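The 18 libraries came from MV4-11 and THP1 cells given DMSO or IACS, with 3 per group, which the labels call independent replicates. Libraries were made with a kit that does not mark strand and sequenced paired-end. Per the labels and the study's methods, the authors mapped reads to GRCh38 in CLC Genomics Workbench and deposited values scaled by transcript length and library total (TPM) for each gene symbol. The annotation and strand setting of the counting are not given in the sources used here. TPM keeps no depth, so precision rests on the spread between libraries, and no interval for counting error is given. All 18 columns were used.

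Values were tested as log2(TPM + 1) in limma 3.58.1 (R 4.3.3; lmFit, then eBayes with a trend) on the genes averaging 1 TPM or more, with Benjamini-Hochberg adjustment over all genes tested. A call required an adjusted p under 0.05 and a change above 1.5-fold in either direction, the fold threshold of the study. IACS was compared with DMSO among the 9 libraries of a cell line, and the DMSO groups and interactions (THP1 effect minus MV4-11 effect) in all 18. The study's own tests, Kruskal-Wallis and Dunn's, were an alternative, as were median-of-ratios scaling, the replicate number as a block, both together, a pseudocount of 0.1, a minimum of 10 TPM or none, removal of 5 abundant noncoding RNAs, and leaving out each library. The count at an adjusted p alone was added after the values were seen. The scripts were tested on simulated data.

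Whether equal replicate numbers pair libraries was checked by correlating their deviations from the group means. In THP1 every pair correlated above 0.1 between DMSO and 24 h (0.146 to 0.324) and between 8 h and 24 h (0.183 to 0.357). Between DMSO and 8 h in THP1 this failed, with a lowest value of 0.0440. In MV4-11 every pair correlated above 0.1 between 8 h and 24 h only (0.110 to 0.441), and not after median-of-ratios scaling (lowest 0.0897). In THP1 the same groups passed and failed on both scales. The block was applied to all groups of a cell line, including those whose libraries did not pair by this rule. The pairing comes from these data and not from the labels.

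The members, gene lists and tests were chosen with earlier results of these data known. Values in every library were given, per set, for the 3 highest and 2 lowest members by mean log2 fold change, the members called (the 3 furthest each way where over 6), those of highest and lowest TPM, the 2 of largest difference each way between the DMSO groups, GARS, KARS and CARS. SARS, TARS, CARS2 and ATF4 were added after their values were seen. Some genes of the lists are not reported here. Gene positions came from GENCODE 44 on GRCh38 and promoter windows from RefSeq on GRCh38.p14.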

Additional observations from a re-analysis of the deposited data

How the results depend on the processing

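The count of synthetases called against DMSO was 0 under each alternative run, except that an unadjusted p gave 1 in MV4-11 at 8 h (CARS). The interaction at 24 h gave 1 (GARS) under the replicate block with median-of-ratios scaling. Between the DMSO groups 10 to 11 members were called with each library left out, RARS2 (0.52), MARS2 (-0.53) and WARS (-0.52) being lost and VARS, CARS2, LARS and FARS2 gained in some of these fits. Scaling gave 11 by adding FARS2. The replicate block changed no call of a member on the deposited scale. By an adjusted p alone, which gave 0 in THP1 at 24 h without the block, the block gave 7, scaling 5, both 14 and removal of the 5 noncoding RNAs 2, and the 14 became 0 to 13 with each THP1 library left out. In MV4-11 at 24 h scaling gave 2 by that rule, with or without the block. The cytosolic median in MV4-11 at 24 h was -0.15 with scaling, with and without the replicate block, against -0.05 as deposited. With each library left out, the cytosolic minus mitochondrial median was 0.064 to 0.144 in THP1 at 8 h and 0.248 to 0.337 at 24 h, the mitochondrial median 0.03 down to -0.20 at 8 h and -0.14 to -0.35 at 24 h, and the cytosolic median at 8 h -0.11 to 0.18. The cause of these shifts was not tested. Of the counts and set medians computed under the alternatives, 388 stayed within the limits of the main value (1 SD between libraries, or 1.5 times a count) and 7 moved. Of the other values, 250 stayed within them, 11 moved and 3 lost their call. The values that stayed include counts of 0 that remained 0, in comparisons where few genes of any kind were called. In THP1 the SD between libraries was 0.25 for the cytosolic median and 0.26 for the mitochondrial median. Those limits are wider than the THP1 median fold changes of both sets, so a median could change sign within them. The tally is therefore no measure of how stable the results are. No called value changed sign, but set medians near 0 did with scaling or with a library left out. With a minimum of 10 TPM, 32 members were tested in MV4-11 and between the DMSO groups and 30 in THP1. TPM holds no read counts, so the depth behind low members such as VARS2 and CARS is unknown.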
